A study of Mus musculus with 5 samples.

Results

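The genes described here are 6 RNA-binding regulators of alternative splicing, all 6 of them measured among the 19938 genes on the arrays. Esrp1, Esrp2 and Rbm47 are factors of epithelial splicing, and Rbfox2, Mbnl1 and Mbnl2 are factors linked to mesenchymal splicing. They were chosen by symbol. Each had 1 probe set annotated with a single gene symbol, so no choice between probe sets arose. The series holds Affymetrix whole-transcript arrays of 5 mouse pancreatic cultures, with 1 deposited log2 signal per probe set, and a difference of 1 on this scale is a doubling of signal.

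The PDAC group (pancreatic ductal adenocarcinoma) held 3 cultures of the genotype that the titles write as Pdx-1CreAPCL/+p53L/L. These combine a Cre recombinase transgene under the Pdx-1 promoter, which is active in the pancreatic lineage, with 1 floxed allele of Apc and floxed p53 on both chromosomes. The normal ductal group held 2 cultures of duct cells with the p53L/L alleles and no floxed Apc allele. The title of normal ductal replicate 1 gives the genotype as Pdx-1Cre p53L/L, so Cre is named in both groups. Floxed p53 was thus common to both groups, and the groups differed in tumour origin together with the Apc allele, which cannot be told apart. The title of normal ductal replicate 2 names Pdx-1 without Cre and leaves out the word ductal, and that of PDAC replicate 3 adds the words mutant cell. Cells were grown for fewer than 6 passages in RPMI with serum, per the labels' protocols, and no age is named. Replicates are biological by their titles, though no label ties a culture to an animal, and p-values here reflect the spread among 5 cultures, a number that limited the precision.

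In epithelial cells, Esrp1 and Esrp2 bind GU-rich sites near alternative exons and favour the epithelial isoforms of transcripts such as Fgfr2, Cd44, Ctnnd1 and Enah. When cells pass through an epithelial to mesenchymal transition these factors are lost, in part through repression of Esrp1 by Zeb factors, and the mesenchymal isoforms take over. Rbfox2, which binds the motif GCATG in its targets, and the muscleblind-like proteins Mbnl1 and Mbnl2 favour many of the isoforms used in mesenchymal and differentiated cells. The deposited table gives a single level per gene, so it shows the amount of each factor's transcript and not the isoforms of the factor or of its targets.

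The arrays were checked against the cell type labels before the members were compared. Over 10 measured duct markers the mean log2 signal was 6.32, 7.29 and 8.93 in PDAC replicates 1, 2 and 3, against 9.74 and 9.45 in normal ductal replicates 1 and 2. Krt19, a keratin of duct cells, stood at 6.47, 9.50 and 11.74 in the PDAC cultures, against 11.46 and 11.37 in the normal ductal cultures. PDAC replicate 1 was therefore low and replicate 3 high in a defining duct gene. Normal ductal replicate 2 lay more than 1 log2 unit above replicate 1 in 14 of 18 fibroblast, 5 of 10 acinar, 6 of 10 islet, 5 of 10 endothelial and 2 of 10 leukocyte markers. It did so in 0 of 10 duct, 0 of 12 striated muscle and 0 of 8 neural markers. The share of all genes with such a difference was not counted, so these counts lack that background. The acinar protease gene Ctrb1 was at 12.26 in normal ductal replicate 2 and at 6.08 in replicate 1. Gcg, the glucagon gene, was at 4.51, 4.63 and 4.31 in the PDAC cultures, against 7.33 and 10.22 in the normal ductal cultures. The islet gene Iapp was also higher in both normal ductal cultures (6.77 and 10.34, against 4.59, 4.24 and 4.46 in PDAC). In normal ductal replicate 1 the islet markers Sst, Pcsk1 and Neurod1 were no higher than the highest PDAC value. Of 10 islet markers, 7 were lower in PDAC without overlap, as were 12.8% of all genes. The part of these other cell types in the results was not tested as such, and values without normal ductal replicate 2 are given where they bear on a member. In such bulk RNA, fewer cells of a type and less RNA per cell cannot be told apart.

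The comparison of PDAC with normal ductal cultures asked whether the splicing factors of the epithelial and the mesenchymal state differ between tumour and duct cells. Esrp1 was far lower in every PDAC culture, Esrp2 was lower by a smaller amount, and Rbm47 was lower in PDAC replicates 1 and 2 but not in replicate 3. On the mesenchymal side Rbfox2 was slightly higher in every PDAC culture, while Mbnl1 and Mbnl2 overlapped between the groups. In the limma test with Benjamini-Hochberg adjustment over all genes, 0 of the 6 members had an adjusted p under 0.05, as against 11 genes overall (0.0502% of genes lower and 0.00502% higher in PDAC, 0.0552% in all). At an unadjusted p under 0.05 limma gave 2 members lower in PDAC (Esrp1 and Esrp2) and 1 higher (Rbfox2), where 6.86% of all genes were lower and 6.50% higher. The groups did not overlap for the same 3 members, and this was so for 12.8% of all genes in the lower and 13.6% in the higher direction.

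**Figure D1:**
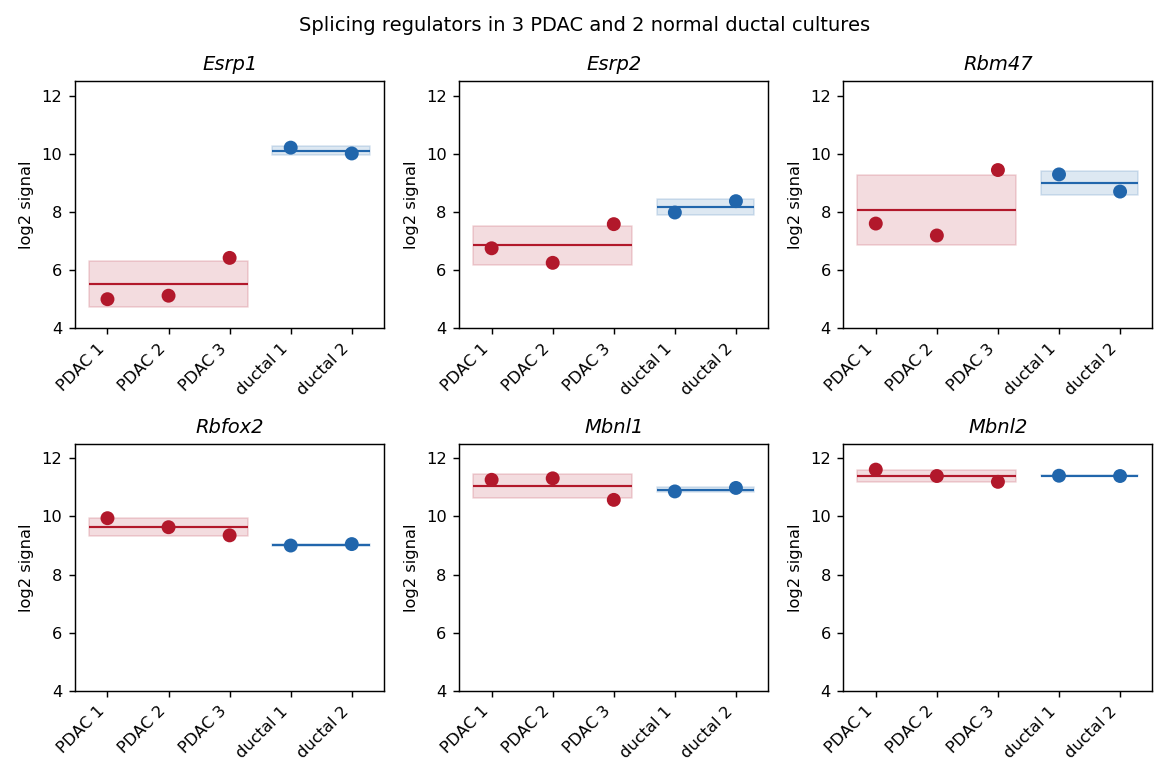
Log2 signal (vertical axis) of the 6 splicing regulators in each of 3 PDAC (red) and 2 normal ductal (blue) cultures. Lines are group means and shaded bands are 1 SD. Esrp1 averaged 5.51 in PDAC and 10.11 in normal ductal cultures, the widest separation of the 6, while the points of Mbnl1, Mbnl2 and Rbm47 overlap between the groups.

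Esrp1, the main epithelial splicing regulator, lies on chromosome 4 from 11331933 to 11386783 in the GRCm38 assembly. Its log2 signal was 5.0, 5.12 and 6.42 in PDAC replicates 1, 2 and 3, against 10.21 and 10.01 in normal ductal replicates 1 and 2. The lowest normal ductal value lay 3.60 above the highest PDAC value, so the groups stood far apart, and PDAC replicate 3 was the highest of the PDAC cultures. The means were 5.51 ± 0.79 (SD, n = 3) in PDAC and 10.11 ± 0.14 (SD, n = 2) in normal ductal cultures. The log2 fold change was -4.60 (SE 0.52, 95% interval -6.06 to -3.14), a signal 24.2-fold higher in normal ductal than in PDAC cultures. Over all genes the median log2 fold change was 0.01, and 17 genes, Esrp1 included, had a log2 fold change of this size or lower (0.0853%).

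The limma test gave Esrp1 an unadjusted p of 0.00101 and an adjusted p of 0.149. With arrays shifted to a common median the adjusted p was 0.0382. With the lower 50% of genes by mean signal left out it was 0.0472. The call thus depended on these settings (0.0382 to 0.440 over 15 alternatives). That filter used the mean over all 5 arrays, and Esrp1 averaged 10.11 in normal ductal and 5.51 in PDAC cultures. Esrp1 was thus kept through its normal ductal values, so the filtered setting adds no support. Esrp1 had a log2 fold change of -4.70 without normal ductal replicate 2, the culture with the higher acinar and islet signals. The change was -4.50 without normal ductal replicate 1, in which Gcg also lay above the PDAC cultures.

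As a guide to array background, the signals of 1015 olfactory receptor genes were read, a set chosen after the values were seen. Their 90th percentiles were 4.84, 4.77 and 4.75 in PDAC replicates 1, 2 and 3, against 4.85 and 4.68 in the normal ductal cultures. In PDAC replicates 1 and 2, 7.78% and 5.42% of these genes were at or above Esrp1, which placed Esrp1 near the top of that range. In PDAC replicate 3 the share was 0.197%, against 0% in each normal ductal culture. A signal close to array background can understate a fold change, and how far this applies to Esrp1 was not tested.

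Esrp2, the paralogue of Esrp1 with an overlapping set of target exons, lies on chromosome 8 from 106130319 to 106137193. Its log2 signal was 6.75, 6.25 and 7.58 in the PDAC cultures, against 7.98 and 8.37 in the normal ductal cultures. The groups did not overlap, but the gap of 0.40 between them was smaller than the spread of 1.33 within PDAC. The log2 fold change was -1.31 (SE 0.46, 95% interval -2.60 to -0.03), with an unadjusted p of 0.0473 and an adjusted p of 0.365 by limma. The unadjusted p was 0.0102 without PDAC replicate 3, but it was over 0.05 when any other culture was left out. It was 0.126 and 0.0876 without PDAC replicates 1 and 2, and 0.128 and 0.213 without normal ductal replicates 1 and 2.

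Rbm47, an RNA-binding protein that acts in splicing and RNA stability in epithelia, lies on chromosome 5 from 66016549 to 66151954. Its log2 signal was 7.60, 7.19 and 9.44 in PDAC replicates 1, 2 and 3, against 9.29 and 8.70 in the normal ductal cultures. PDAC replicates 1 and 2 lay below both normal ductal cultures and replicate 3 lay above both. The log2 fold change of -0.92 (SE 0.81, 95% interval -3.19 to 1.35) had an adjusted p of 0.624 by limma. It depended on single cultures: the log2 fold change was -1.60 without PDAC replicate 3 (unadjusted p = 0.0156 and adjusted p = 0.254 by limma), -0.68 without PDAC replicate 1, -0.48 without PDAC replicate 2, -0.63 without normal ductal replicate 1 and -1.21 without normal ductal replicate 2. The range of the adjusted p across 15 alternatives was 0.254 to 0.899.

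Rbfox2 lies on chromosome 15 from 77078990 to 77308434. It had a log2 signal of 9.94, 9.63 and 9.35 in the PDAC cultures, against 9.0 and 9.05 in the normal ductal cultures. All PDAC values lay above the normal ductal values, with a gap of 0.30 and a spread within PDAC of 0.59. The log2 fold change was 0.62 (SE 0.20, 95% interval 0.04 to 1.19), which is 1.53-fold, with an unadjusted p of 0.0403 and an adjusted p of 0.349 by limma. The unadjusted p was 0.102 without PDAC replicate 2, and 0.163 and 0.141 without normal ductal replicates 1 and 2. Fibroblast markers had list means of 9.46, 8.99 and 8.91 in the PDAC cultures, against 7.19 and 9.32 in the normal ductal cultures. Normal ductal replicate 2 lay 2.13 above replicate 1 in the mean of these markers and 0.05 above it in Rbfox2. The part of fibroblast signal in the difference of Rbfox2 was not tested.

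Mbnl1 lies on chromosome 3 from 60472559 to 60629750. It stood at 11.26, 11.31 and 10.57 in the PDAC cultures, against 10.86 and 10.98 in the normal ductal cultures. PDAC replicates 1 and 2 were above both normal ductal cultures and replicate 3 below both. The log2 fold change was 0.13 (SE 0.28, 95% interval -0.64 to 0.91, adjusted p = 0.846 by limma). Without PDAC replicate 3 it was 0.37, with an unadjusted p of 0.0151 and an adjusted p of 0.252 by limma (0.252 to 1.0 over 15 alternatives).

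Mbnl2 lies on chromosome 14 from 120275652 to 120431698. Its log2 signal was 11.61, 11.39 and 11.19 in the PDAC cultures, against 11.40 and 11.39 in the normal ductal cultures. The PDAC values lay on either side of the normal ductal values. The log2 fold change was -0.00168 (SE 0.14, adjusted p = 1.0 by limma), and its 95% interval of -0.40 to 0.40 leaves out changes of a full log2 unit in either direction. The interval of Esrp1 (-6.06 to -3.14) lay below those of Esrp2, Rbfox2, Mbnl1 and Mbnl2 and overlapped that of Rbm47.

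**Figure D2:**
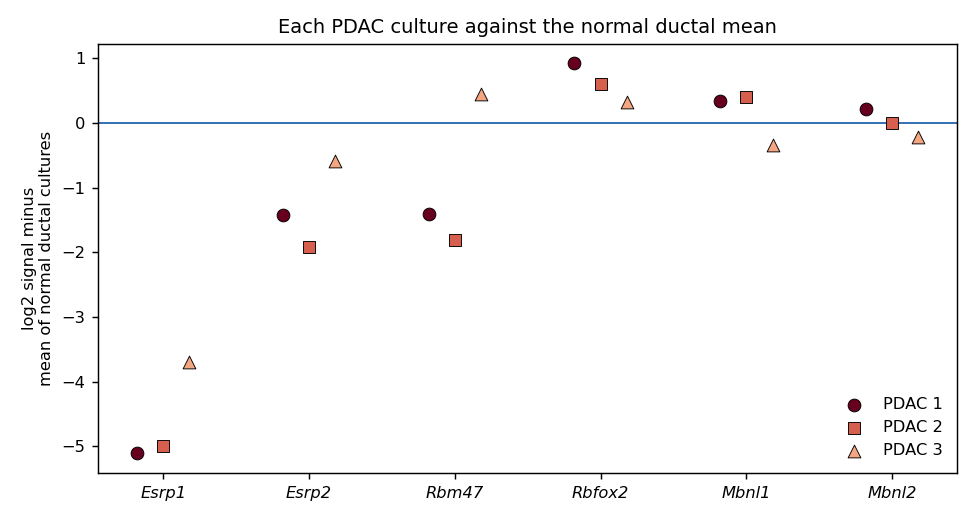
Difference in log2 signal of each PDAC culture from the mean of the 2 normal ductal cultures (vertical axis) for each member; circles, squares and triangles are PDAC replicates 1, 2 and 3 and the blue line is the normal ductal mean. In the epithelial factors the triangle of replicate 3 lies above the other cultures, at -3.69 for Esrp1, -0.59 for Esrp2 and 0.45 for Rbm47, and in the mesenchymal factors it lies below them.

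The PDAC cultures fell into an order that the members shared in part. PDAC replicate 3 had the highest signal of the PDAC cultures in 3 of 3 epithelial factors, as it did in 26.6% of all genes. It had the lowest in 3 of 3 mesenchymal factors, as in 29.7% of all genes, though for Rbfox2 and Mbnl2 the PDAC cultures were about evenly spaced. Relative to the normal ductal mean, Esrp1 lay at -5.11, -4.99 and -3.69 in PDAC replicates 1, 2 and 3. Rbfox2 lay at 0.92, 0.60 and 0.33 in the same cultures. Epithelial markers (15 genes of junctions, keratins and membrane proteases) had list means of 6.31, 7.01 and 8.61 in PDAC replicates 1, 2 and 3, against 10.99 and 10.64 in the normal ductal cultures, and 15 of 15 were highest of the PDAC cultures in replicate 3. Mesenchymal markers (14 genes) had list means of 10.57, 10.56 and 9.94 in the PDAC cultures, against 8.45 and 9.46 in the normal ductal cultures, and 6 of 14 were lowest of the PDAC cultures in replicate 3. Esrp1 in PDAC replicate 3 still lay 3.60 below the lower normal ductal culture. Most epithelial markers also stayed lower there: 14 of 15 were lower in PDAC without overlap, as were 12.8% of all genes. The exception was Krt19, at 11.74 in PDAC replicate 3, above both normal ductal cultures.

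Transcription factors that act on Esrp1 and on the epithelial state were set beside the members. Of 6 repressors (Zeb, Snai and Twist factors), 0 passed the adjusted limma test. At an unadjusted p under 0.05, 3 were higher by limma, as were 6.50% of all genes. In 5 of the 6, PDAC was higher without overlap, as in 13.6% of all genes, and the median log2 fold change of the list was 1.54. Like the fibroblast markers, the repressors stood above normal ductal replicate 1 in replicate 2, by 1.01 in the list mean and by more than 1 in 3 of the 6, and the part of fibroblast signal in the list's difference was not tested. Snai2, a repressor of epithelial genes, stood at 10.09, 9.75 and 9.96 in the PDAC cultures, against 6.56 and 7.44 in the normal ductal cultures (log2 fold change 2.93, SE 0.31, adjusted p = 0.148 by limma). Twist2 had 9.29, 9.59 and 9.31 in the PDAC cultures, against 6.03 and 7.74 in the normal ductal cultures (2.51, SE 0.57, adjusted p = 0.243 by limma). Snai2 passed with arrays at a common median (adjusted p = 0.0389), with the lowest 50% of genes left out (0.0471) and without normal ductal replicate 1 (0.0326) or 2 (0.0244), and Twist2 without normal ductal replicate 2 (0.0238), all by limma. Snai2 did not share the order of Esrp1 within PDAC, since replicate 3 lay between the other cultures. Replicate 3 was the lowest PDAC culture in 3 of the 6 repressors (Zeb2, Snai1 and Twist1), as in 29.7% of all genes. It was the highest in 1 of the 6, as in 26.6% of all genes. Zeb1, named after its values were seen because it is the known repressor of Esrp1, was at 9.10, 9.20 and 9.22 in the PDAC cultures, against 8.46 and 8.82 in the normal ductal cultures (0.53, SE 0.14, adjusted p = 0.290 by limma). The groups did not overlap for Zeb1, with an unadjusted p of 0.0211 by limma. Its difference was smaller in size than that of Esrp1, and the PDAC cultures lay close together.

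Of 8 activators of the epithelial state, 0 passed the adjusted limma test. At an unadjusted p under 0.05, 4 were lower by limma, as were 6.86% of all genes. The list had a median log2 fold change of -0.50 (-2.22 over the members left when the lowest 50% of genes were dropped). That filter used the mean over all 5 arrays, so a gene low in PDAC could stay through its normal ductal values. The value of -2.22 thus adds no support. Grhl2, a transcription factor of epithelial identity, was at 5.09, 5.21 and 5.58 in the PDAC cultures, against 7.96 and 7.68 in the normal ductal cultures (-2.53, SE 0.20, adjusted p = 0.119 by limma, but 0.0238 with a common array median and 0.0386 on quantile-normalized values). Ehf, an epithelial Ets factor, was at 5.14, 5.90 and 6.79 in the PDAC cultures, against 9.81 and 9.0 in the normal ductal cultures (-3.46, SE 0.60, adjusted p = 0.196 by limma). In both genes, as in Esrp1, PDAC replicate 3 was the highest PDAC culture and remained below the normal ductal cultures. Of the 8 activators, 7 were highest of the PDAC cultures in replicate 3, as were 26.6% of all genes. PDAC was lower without overlap in 5 of the 8, as in 12.8% of all genes. Grhl3 had a positive log2 fold change (0.17, SE 0.49). At 6.97 in PDAC replicate 3 it lay above both normal ductal cultures (6.09 and 5.82).

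**Figure D3:**
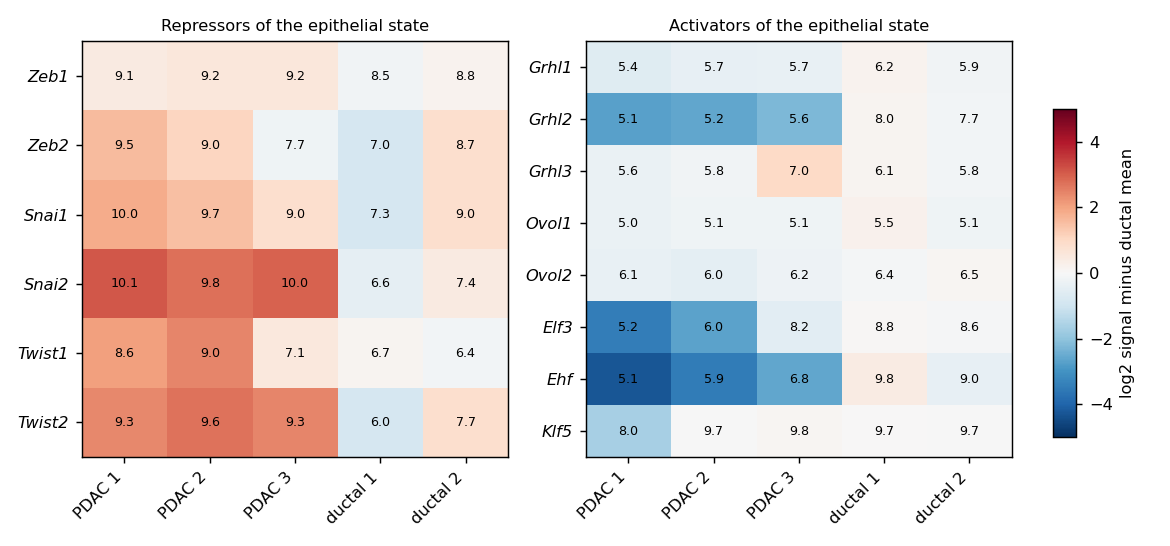
Log2 signal (printed in each cell) of 6 repressors and 8 activators of the epithelial state in 3 PDAC and 2 normal ductal cultures; colour gives the difference from the normal ductal mean of each gene. Snai2 and Twist2 are red in all PDAC cultures, and Grhl2 and Ehf are blue in all of them. Zeb1 is higher in all PDAC cultures by an amount that is small on this colour scale (log2 fold change 0.53).

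Genes whose transcripts Esrp proteins are known to switch were read for their total level. Of 20 measured, 0 passed the adjusted limma test. Before adjustment (limma p under 0.05) 5 were lower and 0 higher, against 6.86% and 6.50% of all genes. PDAC was lower without overlap in 8 and higher in 1, against 12.8% and 13.6% of all genes. The median log2 fold change was -0.21 (-0.09 without normal ductal replicate 2). Cd44, a hyaluronan receptor with variable exons, was at 10.66, 10.20 and 10.81 in the PDAC cultures, against 11.63 and 11.40 in the normal ductal cultures (-0.96, SE 0.22, adjusted p = 0.251 by limma). Numb, an inhibitor of Notch signalling, had -0.36 (SE 0.09, adjusted p = 0.253 by limma). Fgfr2, named after its values were seen as the best known Esrp target, was at 6.94, 7.78 and 6.20 in the PDAC cultures, against 6.96 and 6.96 in the normal ductal cultures (0.01, SE 0.52, adjusted p = 1.0 by limma). The cultures with low Esrp1 thus lay on both sides of the normal ductal cultures in total Fgfr2, and the isoform in use was not measured.

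The paralogues of the members had small log2 fold changes. Of 5 (A1cf, Rbm46, Rbfox1, Rbfox3 and Mbnl3), 0 passed the adjusted limma test, and log2 fold changes ran from -0.26 to 0.33. At an unadjusted p under 0.05, 1 was lower by limma, as were 6.86% of all genes. A1cf, the relative of Rbm47 known from RNA editing, was at 2.35, 2.39 and 2.48 in the PDAC cultures, against 2.76 and 2.58 in the normal ductal cultures, all below the 90th percentile of the olfactory receptor genes. Rbfox1, known from neurons and muscle, had -0.15 (SE 0.07, adjusted p = 0.505 by limma).

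Other splicing genes gave the setting for the size of these differences; Qki, Srsf7, Hnrnpa1, Hnrnpa3, Hnrnph3 and Snrpf were not analysed here. Among 30 further factors of regulated splicing, 0 passed the adjusted limma test. Before adjustment (limma p under 0.05) 2 were higher and 4 lower, against 6.50% and 6.86% of all genes. PDAC was higher without overlap in 4 and lower in 5, against 13.6% and 12.8% of all genes. Log2 fold changes ran from -1.54 to 1.47 with a median of 0.03. Ptbp3, a polypyrimidine tract binding protein, was at 10.55, 10.40 and 10.56 in the PDAC cultures, against 11.23 and 11.29 in the normal ductal cultures (-0.76, SE 0.08, adjusted p = 0.140 by limma). Khdrbs3, a relative of Sam68, had -0.90 (SE 0.18, adjusted p = 0.214 by limma). Esrp1, at -4.60, thus lay outside the range of this list, while Esrp2, Rbm47 and the mesenchymal factors lay within it.

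General splicing factors had small log2 fold changes, and 53.2% of all genes had a positive one. Of 12 SR proteins, which promote exon inclusion, 10 had a positive log2 fold change, with a median of 0.23. In the limma test 0 SR genes passed after adjustment and 2 were higher at an unadjusted p under 0.05, Srsf1 (0.37, SE 0.12, adjusted p = 0.346) and Srsf10 (0.24, SE 0.08, adjusted p = 0.358). Of all genes 6.50% were higher at that threshold. PDAC was higher without overlap in 6 of the 12, as in 13.6% of all genes. Of 15 hnRNP genes, whose proteins often repress exons, 14 had a positive log2 fold change, with a median of 0.16 (0.10 without normal ductal replicate 1 and 0.25 without replicate 2). Here 0 passed the adjusted limma test and 5 were higher at an unadjusted p under 0.05 (6.50% of all genes), among them Hnrnpd (0.66, SE 0.13, adjusted p = 0.211) and Hnrnph2 (0.29, SE 0.06, adjusted p = 0.219). PDAC was higher without overlap in 8 of the 15 hnRNP genes, as in 13.6% of all genes. Hnrnpm, named after its values were seen because it competes with Esrp1 at shared exons, was at 11.29, 11.23 and 11.35 in the PDAC cultures, against 10.90 and 11.12 in the normal ductal cultures (0.28, SE 0.09, adjusted p = 0.339 by limma).

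Of 36 genes of the core spliceosome, 32 had a positive log2 fold change, with a median of 0.16. By limma 0 passed after adjustment, 6 were higher and 1 lower before adjustment (p under 0.05), with Ddx23, a helicase (0.53, SE 0.10, adjusted p = 0.211), and Snrpc, a protein of the U1 particle (0.68, SE 0.13, adjusted p = 0.212), at the smallest p. Of all genes 6.50% were higher and 6.86% lower at that threshold. PDAC was higher without overlap in 13 of the 36 and lower in 1, against 13.6% and 12.8% of all genes. The median of all genes was 0.01 as deposited and 0.10 with arrays at a common median, where the SR, hnRNP and core medians were 0.32, 0.25 and 0.25.

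**Figure D4:**
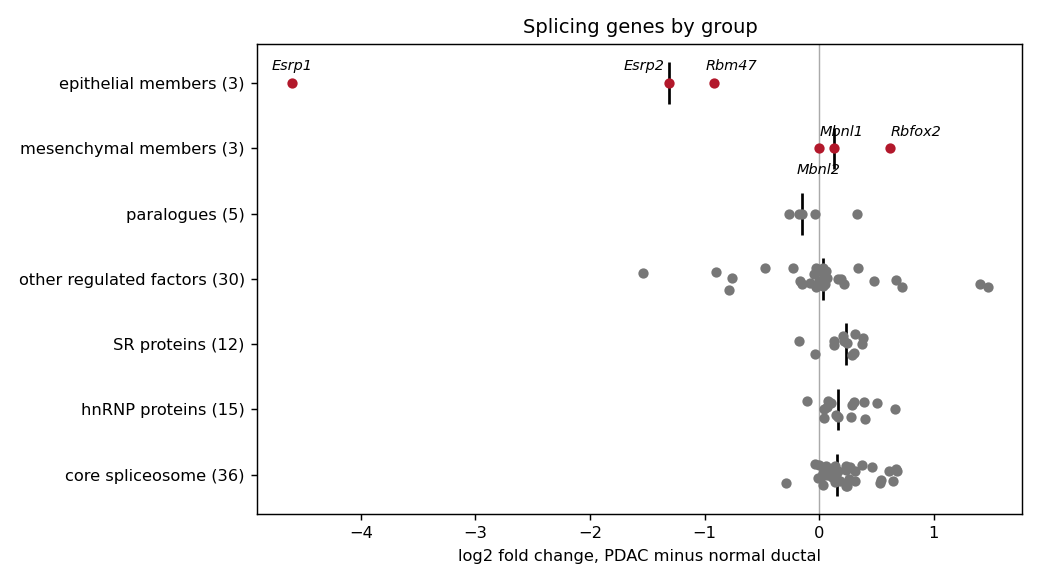
Log2 fold change, PDAC minus normal ductal (horizontal axis), of the epithelial and mesenchymal members (red, named) and of the measured genes of 5 other splicing lists (grey), with the number of genes in brackets and a black bar at each median. Esrp1 at -4.60 lies outside the range of all 5 grey lists, and the SR, hnRNP and core lists lie mostly just above 0.

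The genes whose values ran most like those of a member over the 5 arrays were found for the 3 members with a range of at least 2 log2 units, by the smallest root mean square difference after each gene was centred on its own mean. For Esrp1 these were Olfr1372-ps1, which the annotation gives as an olfactory receptor pseudogene (difference 0.16), the membrane protease gene St14 (0.21), the claudins Cldn4 (0.25) and Cldn7 (0.29), and Spint1, an inhibitor of membrane proteases (0.30). St14 was at 6.08, 6.13 and 7.37 in the PDAC cultures, against 11.73 and 11.04 in the normal ductal cultures. As in Esrp1, by which St14 was picked, PDAC replicates 1 and 2 were low and nearly equal and replicate 3 was somewhat higher. For Esrp2 they were Nipsnap1 (0.15), Slc35g2 (0.19), Nfe2l3 (0.19), Vav1 (0.20) and Faah (0.23). Values were centred but not scaled, so nearness rests on the size of a change as well as on its order.

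For Rbm47 they were Il1rn, the antagonist of the interleukin-1 receptor (0.14), Stxbp6 (0.17), the claudin Cldn2 (0.19), Podxl, an apical membrane protein (0.19), and Pip5k1b (0.22). Il1rn was at 7.23, 6.7 and 9.08 in the PDAC cultures, against 8.58 and 8.09 in the normal ductal cultures, so that replicate 3 again lay above both normal ductal cultures. The order of the levels of Rbm47 thus differed from that of Esrp1, for which replicate 3 stayed with the PDAC cultures.

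**Figure D5:**
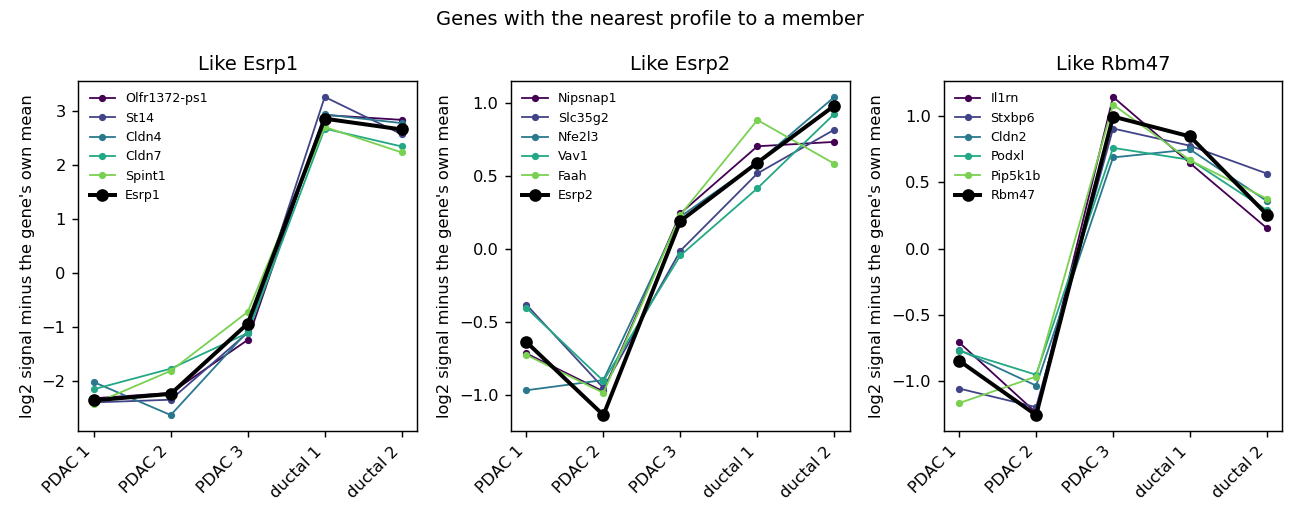
Log2 signal minus the mean of each gene (vertical axis) over 3 PDAC and 2 normal ductal cultures for Esrp1, Esrp2 and Rbm47 (black) and the 5 genes nearest to each (coloured). The Esrp1 panel steps up between the PDAC and normal ductal cultures, while in the Rbm47 panel PDAC replicate 3 lies with or above the normal ductal cultures.

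Promoter windows of 300 bases from RefSeq (GRCm38.p6) were on hand for 3 members, Rbm47, Mbnl1 and Mbnl2, with 6 windows in all. They were searched on both strands for CAGGTG, the E-box that Zeb and Snai factors bind, and for AACCNGTT, a form of the Grhl site. Neither string was found in the 6 windows (0 windows each), while 20.2% and 2.09% of all 32851 windows held them. This says only that these letters are not in these windows. Esrp1, Esrp2 and Rbfox2 were not searched.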

How the data were processed

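The authors deposited log2 signals for 35556 probe sets on 5 arrays. Transcriptome Analysis Console 1.0.0.234 and mm10 are named, per the submitters' processing notes; for background correction, normalization and probe summary the method is not stated there. That the scale is log2 was inferred from the values (0.727 to 13.9, array medians 5.90 to 6.02); another base would change fold changes but not tests.

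Names came from the annotation of the platform: 21789 probe sets had 1 symbol, 1621 several and 12146 none, and the last 2 kinds were left out. The probe set with the highest mean stood for each of 19938 genes. PDAC was compared with normal ductal cultures by limma 3.58.1 in R 4.3.3 (lmFit, eBayes with an intensity trend, two-sided, all 5 arrays; degrees of freedom were 3 residual and 0.91 prior). P-values were adjusted by Benjamini-Hochberg over the 19938 genes, with 0.05 as the threshold. The test was tried on simulated data. Tables and figures used Python 3.11.15.

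The members and lists were chosen with earlier results of these data known. From each list the text names genes past the threshold or, failing that, the 2 of smallest p; for members ranging over 2 log2 units it names the 5 nearest profiles. Alternatives were other normalizations, signal filters, variance models, probe set rules, array weights, a replicate block, a threshold of 0.1 and leaving out each culture. A planned comparison of protein sequences was not run. Striated muscle and neural marker lists, also read, had median log2 fold changes of -0.0011 and -0.06.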

Additional observations from a re-analysis of the deposited data

How the results depend on the processing

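Over 15 alternative settings the log2 fold change ran from -5.05 to -4.34 for Esrp1, -1.67 to -1.01 for Esrp2, -1.60 to -0.48 for Rbm47, 0.47 to 0.76 for Rbfox2 and 0.00063 to 0.37 for Mbnl1, each with 1 sign throughout. Esrp1 had an unadjusted p under 0.05 in 15 of the 15, Esrp2 in 10 and Rbfox2 in 12. Members past the adjusted threshold by limma were 1 lower gene, Esrp1, with arrays at a common median (-4.50, adjusted p = 0.0382) and with the lowest 50% of genes left out (-4.60, adjusted p = 0.0472, fewer genes tested), and 0 in the other settings. The filter kept Esrp1 through its high normal ductal values, so it adds no support. Mbnl2, at -0.00168, turned positive under quantile normalization (0.00479), a common median (0.09) and array weights (0.04), and ran from -0.11 to 0.10 with a culture left out. Members with an unadjusted p under 0.05 were 1 lower with no intensity trend, and with a culture left out 1 to 3 lower and 0 to 2 higher; members whose groups did not overlap were 1 to 2 higher with a culture left out.

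The replicate number as a block gave PDAC replicate 3 a level of its own and so dropped it: 3 members were lower and 2 higher with an unadjusted p under 0.05, Rbm47 had -1.60, Mbnl2 had 0.10, and 0 genes passed in either direction (1104 higher and 1110 lower before adjustment). Same-numbered cultures had deviations from their group means that correlated at -0.178 and -0.042. With 2 normal ductal cultures these deviations mirror each other, so the correlations are not independent. They cannot settle whether the numbers pair the samples.

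Over all genes, limma called 1 higher and 10 lower; quantile normalization gave 10 and 32, a common median 23 and 57, leaving out the lowest 25% of genes 3 higher, the lowest 50% 15 and 27, array weights 0 and 3, and a threshold of 0.1 gave 6 and 19. Leaving out a culture gave 0 to 980 higher and 0 to 865 lower genes, 0 in both directions without PDAC replicate 1, 2 or 3 (934 to 1416 higher and 994 to 1335 lower before adjustment), 980 and 307 without normal ductal replicate 1 and 125 and 865 without replicate 2, where the lone normal ductal culture is assumed to vary like the PDAC cultures. Of the splicing lists and switch genes, limma called Elavl4, Srrm4, Srsf12 (0.19) and Uap1 without normal ductal replicate 1, and Srsf12 (-0.27) without replicate 2. The causes were not tested. The medians of the splicing, switch gene, repressor and activator lists kept their signs, except that of the paralogues, which was 0.33 with the lowest 50% of genes left out, a setting in which that of the activators was -2.22. In both lists that filter changed which genes were counted. The marker lists were read as deposited only.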
